A study of Fagopyrum tataricum with 12 samples.

Results

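The genes described here are those of cytokinin metabolism and signalling in Tartary buckwheat (Fagopyrum tataricum). They were taken by the deposited gene descriptions: a gene was included when its description named cytokinin, a histidine kinase, a histidine-containing phosphotransfer protein or a two-component response regulator, and the clock-type pseudo-response regulators described as "response regulator-like" were not. The rule gave 71 genes of the 26750 in the table, and used no expression value. The RNA came from leaves and stems of Dingku1 seedlings, a cultivar grown here in hydroponics under long days to the 2-leaf stage. The roots of treated seedlings were in 20% PEG-6000, an osmotic agent that makes water harder to take up, for 2, 4 or 8 h, and the control seedlings were in Hoagland's nutrient solution and were taken at 0 h. Each of these 4 groups held 3 libraries, and none came from seedlings kept in nutrient solution to a later hour, so the effect of PEG and that of the time of day cannot be told apart. Whether the 3 libraries of each group were separate plants, pools or repeats is not given in the labels, and the p-values therefore measure only the spread between these samples, which may be technical.

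Cytokinins are adenine-derived hormones that keep shoot meristems dividing, delay leaf senescence and oppose abscisic acid in many responses to drought. An isopentenyltransferase makes the first cytokinin nucleotide, the cytochrome CYP735A hydroxylates it to the trans-zeatin form, enzymes of the LOG family release the active free base, and cytokinin dehydrogenases (CKX) destroy it. The free base binds membrane histidine kinases, which pass a phosphate through phosphotransfer proteins to the type B response regulators in the nucleus, and these switch on genes that include the type A regulators, which damp the signal. These roles are known mainly from Arabidopsis and rice, and the buckwheat genes carry the names of their closest described match, so several share 1 name and are told apart here by the end of their identifiers (evm.TU.Ft1.610 is written Ft1.610, where the digit after Ft is the chromosome).

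The 71 genes comprise 10 LOG, 5 CYP735A and 7 CKX genes, 6 receptors, 7 other histidine kinases, 5 phosphotransfer and 7 pseudo-phosphotransfer genes, and 13 type A, 10 type B and 1 type C response regulators. They lie on all 8 chromosomes, with the most (15) on chromosome 2 and the fewest (3) on chromosome 8. Of the 71, 65 carry a cytokinin term in the deposited gene ontology column, and 37 the plant hormone signal pathway. Levels are given as scaled FPKM, which are the deposited FPKM (fragments per length of coding sequence and per library total) divided by the library's TMM scaling factor, so that they stand on the scale of the test. Counted reads per library ranged from 30468104 to 37395814. Changes are log2 differences between a PEG time and the control from the edgeR quasi-likelihood fit of all 12 libraries, with Benjamini-Hochberg adjustment over the 22063 genes tested and a threshold of 0.05. The SE of a change was worked back from its test, as the size of the change over the square root of the F statistic. It is therefore approximate, above all in genes with few counts.

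After PEG, 3 of the 4 tested genes for hydroxylation to trans-zeatin, both tested genes for the receptor AHK4 and for the phosphotransfer protein AHP1, and the type A regulators were lower than in the control, while LOG1, LOG8, the receptor AHK3, a pseudo-phosphotransfer gene and the type C regulator ARR24 were higher. Of the 51 cytokinin genes with enough reads to test, 17 were higher and 26 lower at 2 h, beside 31.6% higher and 31.7% lower among all genes in the test (63.2% in either direction). At 4 h 16 were higher and 28 lower (35.1% and 37.7% of all tested genes, 72.8% together), and at 8 h 14 were higher and 31 lower (36.4% and 34.5%, 70.9% together). Changes of at least 2-fold were made by 9 higher and 17 lower genes at 2 h, where 9.83% and 8.76% of all tested genes passed this limit, by 8 and 20 at 4 h (12.9% and 14.1%), and by 8 and 25 at 8 h (12.2% and 14.8%). The median log2 change of the 51 was -0.37 at 2 h, -0.70 at 4 h and -0.97 at 8 h, beside 0.00, -0.04 and 0.03 over all tested genes. All 3 PEG libraries stood above all 3 controls in 16, 15 and 14 of the 51 at 2, 4 and 8 h (32.8%, 35.8% and 37.4% of all tested genes) and below them in 26, 30 and 31 (33.2%, 38.6% and 35.4%). Some of the 51 had enough reads only in 1 group and so had to differ. Among them were the 3 hydroxylation genes that fell, CKX3 Ft1.110 and the pseudo-phosphotransfer gene PHP2 Ft3.2047. These counts and medians are a description with no test over the list.

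Between the times, 24 of the 51 were lower than the control at all 3 PEG times (21.4% of all tested genes were) and 12 were higher at all 3 (19.2%). LOG7 Ft2.4400, LOG5 Ft1.1665 and CKX5 Ft4.5822 were higher at 1 time and lower at another (10.5% of all tested genes). The type B gene RR23 Ft1.11 passed at no time, with log2 changes of -0.10, 0.30 and 0.26. In the test of any difference between the 4 times, 50 of the 51 passed, and 88.7% of all tested genes did.

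**Figure D1:**
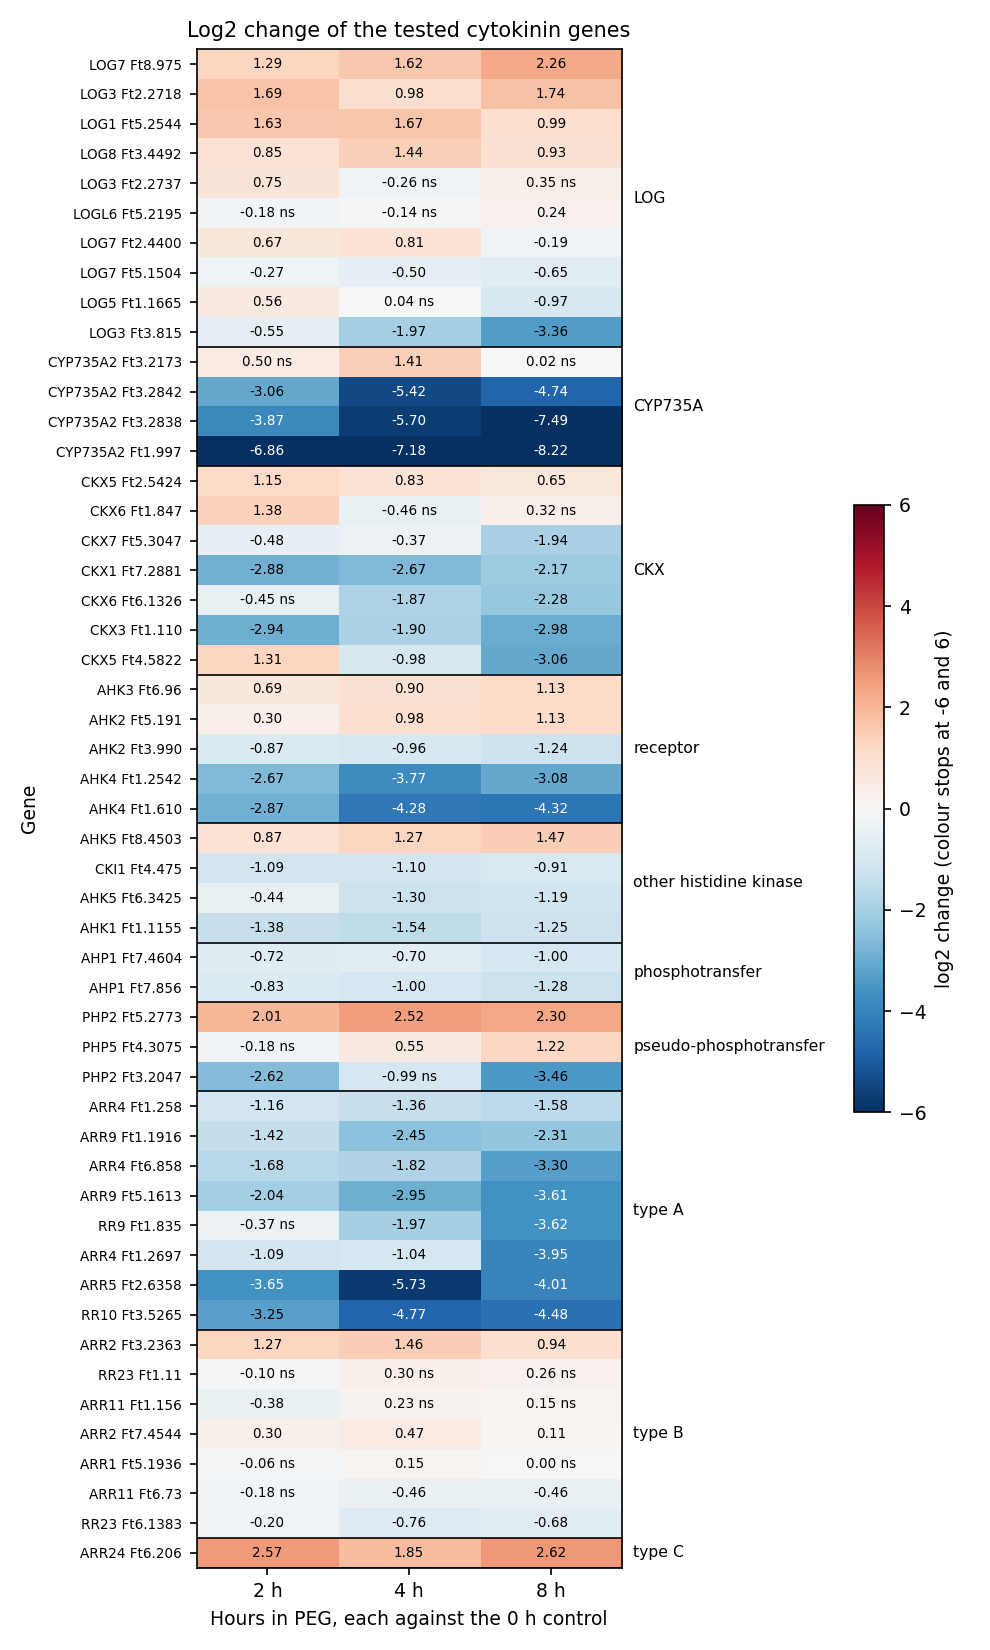
Log2 change of each of the 51 tested cytokinin genes (rows, grouped by class) at 2, 4 and 8 h in PEG, each against the 0 h control, printed in each cell and coloured from blue (lower) to red (higher). "ns" marks a change that did not pass the edgeR threshold of 0.05. All 8 type A regulators are blue, down to -5.73 in ARR5 at 4 h, the type C regulator ARR24 is red at 1.85 to 2.62, and the type B regulators are pale.

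The organs in the samples also changed in their marker genes. Leaf mesophyll markers (22 genes for Rubisco small subunit, Rubisco activase and chlorophyll-binding proteins) summed to 55047 to 58854 scaled FPKM at 2 h, 41928 to 42218 at 4 h and 12471 to 13208 at 8 h, against 97557 to 105262 in the controls. Lower calls were made for 20, 20 and 21 of the 22, beside 31.7%, 37.7% and 34.5% of all tested genes. Stem and vascular markers (16 genes) summed to 28 to 29.5, 24.4 to 26.2 and 47.2 to 52.7, against 19.1 to 23.3. Of the 16, 6, 3 and 9 were higher (31.6%, 35.1% and 36.4% of all tested genes) and 0, 1 and 1 lower (31.7%, 37.7% and 34.5%). Cell wall genes held much of the 8 h sum: CESA4, CESA7 Ft3.965, CESA8 and IRX15 Ft7.4767 averaged 9.01, 6.85, 8.13 and 6.24, against 1.24, 0.616, 0.849 and 0.45. The sieve element gene SEOB Ft5.1254 was lower at 4 and 8 h (-1.08 and -1.34). The shoot meristem list (17 genes) was matched by name and took in WUSCHEL-related (WOX) genes, which need not mark the meristem. Its genes for WUSCHEL (WUS), SHOOT MERISTEMLESS (STM), KNAT1 and 3 WOX4 copies were lower at all 3 times. They were 6 of the 10 with enough reads, beside 21.4% of all tested genes. WUS stood at 0.129, 0.0793 and 0.173 scaled FPKM against 0.892 in the controls. The WOX8 copy Ft7.4927, higher at all 3 times, carried most of the list's sum. That sum was higher (93.9 to 104, 111 in each library at 4 h, and 168 to 170, against 59.7 to 68.3). WOX1 Ft1.2474 and WOX2 Ft2.901 were also higher at 8 h (log2 changes of 1.44 and 1.71). The root list (16 genes, matched by name) summed to 102 to 109, 93.1 to 96.5 and 86 to 91.7, against 98.4 to 106. Genes named after ROOT HAIR DEFECTIVE 3 (RHD3) held most of this, with Ft5.2752 at 53.7 and Ft7.1846 at 32.2 in the controls. The sum therefore need not measure root tissue. Of the 6 genes with enough reads, 1, 2 and 1 were higher and 2, 2 and 4 lower. The shares over all tested genes were 31.6%, 35.1% and 36.4% higher and 31.7%, 37.7% and 34.5% lower. Among the 6, RHD3 Ft7.1846 was higher at all 3 times (log2 changes of 0.38, 0.20 and 0.16) and RHD3 Ft6.1827 lower (-0.93, -1.07 and -0.93). The endodermis gene for Casparian strip membrane protein 1 (Ft2.4410) was lower at 2 and 8 h (-1.40 and -2.86), with 2 h libraries that overlapped the controls, and did not pass at 4 h (-0.89). The root hair gene EXPA7 had at most 9 counts in a group. The seed list (12 genes) summed to 24.5 to 25.8, 32 to 32.9 and 147 to 167, against 14 to 15.7. The part of these shifts in the changes below was not tested, and in such whole-organ samples fewer cells of a type and less RNA per cell cannot be told apart.

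Of the 4 tested genes for hydroxylation to the trans-zeatin form, 3 fell to a few counts. These 3 had enough reads for the test only in the control group and so had to differ from it. The values below describe how large the drop was. CYP735A2 Ft1.997 measured 0.0503, 0.0353 and 0.0499 scaled FPKM at 2 h, 0.0701, 0.0178 and 0.0188 at 4 h and 0.0313, 0 and 0.0157 at 8 h, against 6.1, 5.15 and 5.29 in the controls. It was near the detection limit in every PEG library and well above it in every control library. The log2 changes were -6.86 (SE 0.317) at 2 h and -7.18 (SE 0.332) at 4 h (edgeR adjusted p = 2.89e-21 and 1.75e-21), and the 3 counts left at 8 h, against 1005 in the controls, gave a level 336 times lower (95% exact interval for counting error 115 to 1632).

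CYP735A2 Ft3.2838 measured 0.0683, 0.264 and 0.0452 scaled FPKM at 2 h, 0.0238, 0 and 0.0765 at 4 h and 0.0213, 0 and 0 at 8 h, against 2.15, 2 and 1.39 in the controls. The lowest control library was above the highest PEG library. Its log2 changes were -3.87 at 2 h (SE 0.479) and -5.70 at 4 h (SE 0.602), and 1 count was left at 8 h, against 248 in the controls (249 times lower, 44.2 to 9866). A weaker copy, Ft3.2842, measured 0.0915, 0 and 0.0364 at 2 h, 0.0191, 0 and 0 at 4 h and 0.0171, 0 and 0.0171 at 8 h, against 0.487, 0.446 and 0.199. It too was lower in all PEG libraries, but it had only 7, 1 and 2 counts at 2, 4 and 8 h, against 63 in the controls. At 2 h its log2 change was -3.06 (SE 0.685). The ratios at 4 and 8 h rest on so few counts that their intervals run from 9.95 to 2308 and from 8.39 to 267 times lower.

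CYP735A2 Ft3.2173 did not share this course. Its libraries held 0.249, 0.169 and 0.372 scaled FPKM at 2 h, 0.428, 0.53 and 0.539 at 4 h and 0.183, 0.0769 and 0.3 at 8 h, against 0.105, 0.139 and 0.316 in the controls. Only the 4 h libraries stood clear of the controls, and the log2 change there, 1.41 (SE 0.472, edgeR adjusted p = 0.00793), missed the threshold without control replicate 1 (1.13, adjusted p = 0.0558). The last copy, Ft3.2839, had no count in PEG and 2 in the controls and was not tested. The identifiers of Ft3.2838, Ft3.2839 and Ft3.2842 are numbered close together, and reads shared between such copies could have been split in ways the counts do not show.

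Enzymes of the LOG family went in both directions. At 2, 4 and 8 h, 7, 5 and 5 of the 10 genes were higher (70%, 50% and 50%, beside 31.6%, 35.1% and 36.4% of all tested genes) and 2, 2 and 4 lower (20%, 20% and 40%, beside 31.7%, 37.7% and 34.5%). LOG1 Ft5.2544 measured 89.6, 89.3 and 81.1 scaled FPKM at 2 h, 85.6, 89.8 and 92.2 at 4 h and 54.8, 55.9 and 56.2 at 8 h, against 29, 29.6 and 25.5 in the controls. It was higher in every PEG library, most at 2 and 4 h. The log2 changes were 1.63, 1.67 and 0.99 (SE 0.0591, 0.0592 and 0.0606; edgeR adjusted p = 1.19e-24, 2.69e-25 and 1.27e-17).

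LOG8 Ft3.4492 had 64.2, 66 and 66 scaled FPKM at 2 h, 97, 102 and 96.8 at 4 h and 69.6, 67.7 and 69.9 at 8 h, against 35.3, 35.8 and 37.9 in the controls. It peaked at 4 h, with log2 changes of 0.85, 1.44 and 0.93. LOG7 Ft8.975 rose with each time instead, to 17.8, 18.3 and 16.8 scaled FPKM at 2 h, 21.5, 22.6 and 22.4 at 4 h and 36.5, 32.5 and 34.1 at 8 h, against 6.64, 7.73 and 7.23 in the controls. The groups did not overlap with each other, and the level at 8 h was 4.77 times that of the control (log2 change 2.26, SE 0.0902, edgeR adjusted p = 1.37e-23).

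LOG3 Ft3.815 went the other way. It measured 20.8, 20.6 and 20.5 scaled FPKM at 2 h, 7.03, 9.05 and 6.97 at 4 h and 3.1, 3.03 and 2.67 at 8 h, against 33.2, 27.5 and 29.7 in the controls. Each time lay below the one before it, with no overlap. At 8 h it was 10.3 times lower (log2 change -3.36, SE 0.121, edgeR adjusted p = 3.64e-25).

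Among the other LOG genes, LOG7 Ft5.1504 fell at all 3 times, to 52.9 ± 4.23 scaled FPKM at 8 h against 83.2 ± 0.9 in the controls (SD, n = 3), where it was the LOG gene with the highest level. LOG3 Ft2.2718, a low gene with 49 counts in the controls, was higher at all 3 times, with log2 changes of 1.69, 0.98 and 1.74. Its 4 h call was lost when control replicate 2 or 4 h replicate 1 was left out (0.69 and 0.68), and its 4 h libraries overlapped the controls. LOG7 Ft2.4400 averaged 32.8 ± 1.41, 36.1 ± 1.19 and 18 ± 1.59 scaled FPKM, against 20.5 ± 0.662 in the controls, with log2 changes of 0.67, 0.81 and -0.19. The last of these 3 did not pass without control replicate 2 or without 8 h replicate 1 (-0.16 and -0.12), or with scaling by library size alone (-0.04). LOG5 Ft1.1665 was higher at 2 h (0.56) and lower at 8 h (-0.97), with 0.04 at 4 h, which did not pass. LOG3 Ft2.2737 passed at 2 h alone (0.75), with libraries that overlapped the controls, and not without control replicate 1 or 2 h replicate 1 (0.51 and 0.45). LOGL6 Ft5.2195 passed at 8 h alone (0.24), and that call was lost in 6 of its alternatives, among them leaving out control replicate 2 or 3 or 8 h replicate 1 or 3 (0.16 to 0.26).

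The family as a whole summed to 322 ± 7.15 scaled FPKM at 2 h, 335 ± 5.22 at 4 h and 257 ± 6.3 at 8 h, against 229 ± 2.76 in the controls (SD, n = 3). No PEG library reached down to the control range. At 8 h LOG8 led the sum with 26.8%, and in the controls LOG7 Ft5.1504 led it with 36.3%.

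The dehydrogenases that destroy cytokinin were mixed at 2 h, with 3 of 7 higher and 3 lower, and mostly lower later, with 1 higher and 5 lower at both 4 and 8 h (42.9%, 14.3% and 14.3% higher, beside 31.6%, 35.1% and 36.4% of all genes in the fit, and 42.9%, 71.4% and 71.4% lower, beside 31.7%, 37.7% and 34.5%). CKX7 Ft5.3047, which made up 84% of the summed level in the controls, measured 22.9, 22.2 and 23 scaled FPKM at 2 h, 25.4, 24.5 and 23.7 at 4 h and 9.2, 7.2 and 8.31 at 8 h, against 31.1, 33 and 31.1 in the controls. It was modestly lower at 2 and 4 h and far lower at 8 h. The log2 changes were -0.48, -0.37 and -1.94 (SE 0.059, 0.0589 and 0.0654; edgeR adjusted p = 3.64e-09, 6.11e-07 and 4.41e-26). The leaf marker list was at its lowest in the same 8 h libraries.

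CKX1 Ft7.2881 measured 0.264, 0.241 and 0.28 scaled FPKM at 2 h, 0.387, 0.112 and 0.415 at 4 h and 0.362, 0.475 and 0.462 at 8 h, against 1.93, 2.1 and 1.82 in the controls. It was low in every PEG library, and its log2 changes were -2.88, -2.67 and -2.17 (SE 0.325, 0.321 and 0.301). CKX5 Ft4.5822 gave 2.5, 1.53 and 1.77 scaled FPKM at 2 h, 0.385, 0.54 and 0.255 at 4 h and 0.0982, 0.113 and 0.0656 at 8 h, against 0.621, 0.837 and 0.881 in the controls. All 2 h libraries stood above the controls and all 4 and 8 h libraries below them. The log2 changes were 1.31, -0.98 and -3.06 (edgeR adjusted p = 7.15e-05, 0.00685 and 1.78e-08), and 4 h was 4.89 times lower than 2 h (log2 change -2.29, SE 0.302, adjusted p = 3.2e-08).

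CKX6 Ft1.847 also stood above the controls at 2 h alone. It measured 2.96, 2.69 and 2.43 scaled FPKM at 2 h, 0.796, 0.697 and 0.754 at 4 h and 1.57, 1.4 and 0.896 at 8 h, against 0.872, 1.11 and 1.12 in the controls. The 2 h log2 change was 1.38 (SE 0.21, edgeR adjusted p = 3.49e-07), and those at 4 h (-0.46) and 8 h (0.32) did not pass. Of the rest, CKX5 Ft2.5424 was higher at all 3 times (1.15, 0.83 and 0.65), although without 8 h replicate 1 its 8 h value was 0.51 and did not pass. CKX6 Ft6.1326 was lower at 4 and 8 h (-1.87 and -2.28), with -0.45 at 2 h, which did not pass. CKX3 Ft1.110, with 50 counts in the controls, was lower at all 3 times (-2.94, -1.90 and -2.98), and its 4 h value without 4 h replicate 1 was -1.43 and did not pass. This gene had enough reads for the test only in the controls and so had to be lower. It is among the CKX genes counted as lower at each time. The summed CKX level was 30.6 ± 0.789 scaled FPKM at 2 h, 28.1 ± 1.18 at 4 h and 11.9 ± 1.32 at 8 h, against 37.8 ± 1.12 in the controls, with no overlap.

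**Figure D2:**
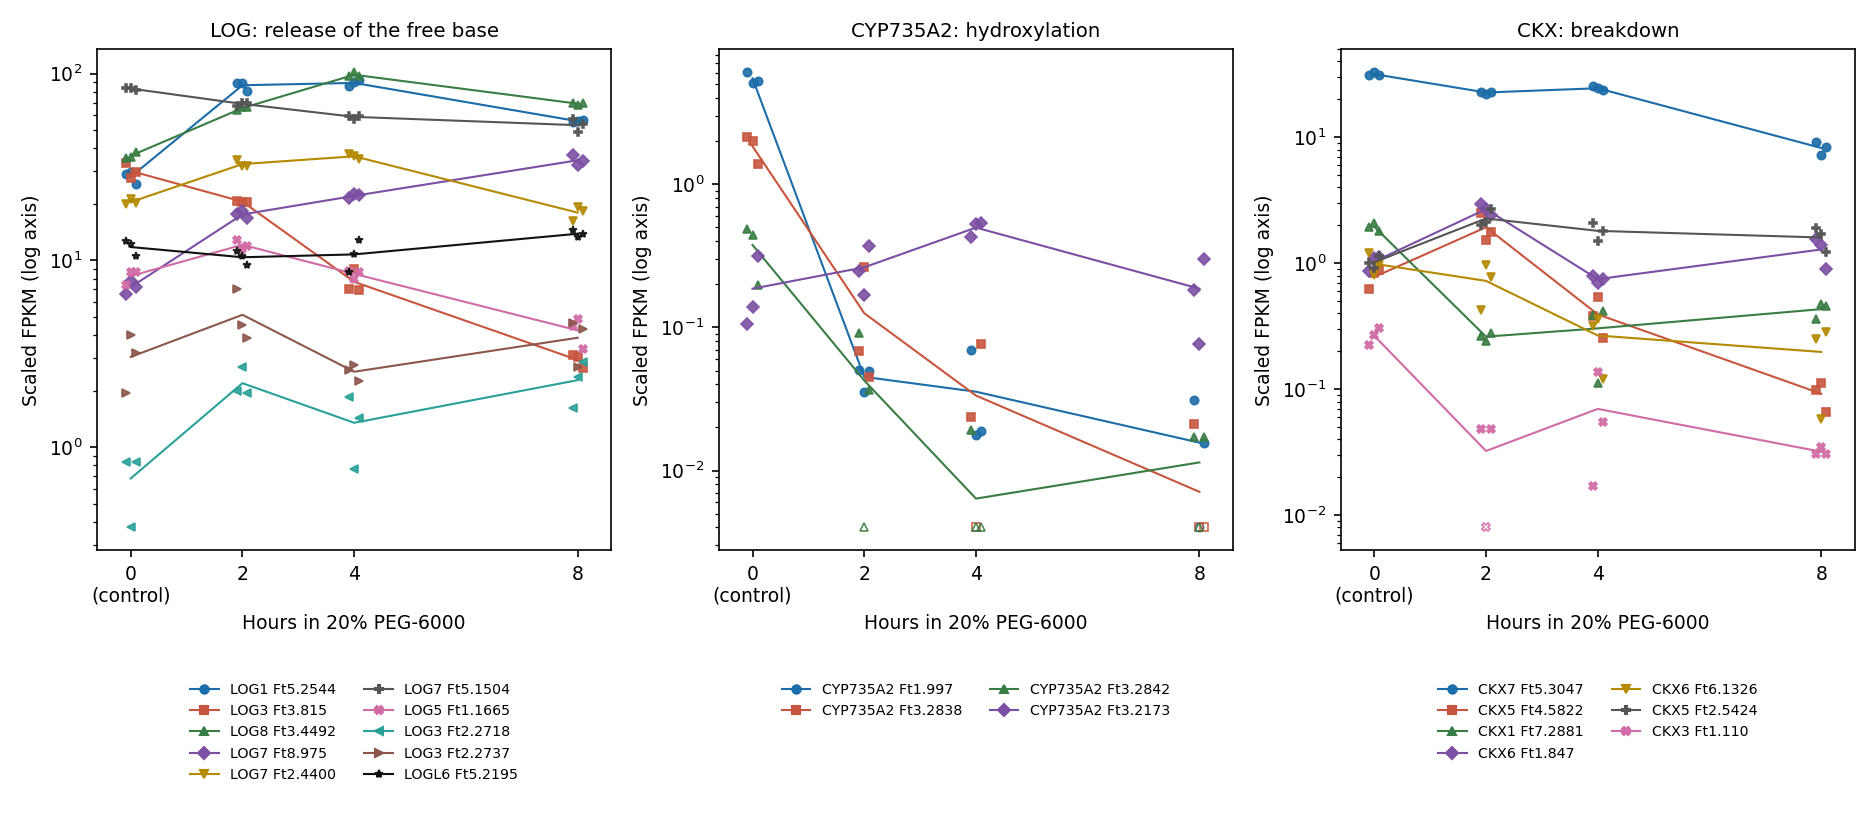
Scaled FPKM (log axis) of the LOG, CYP735A2 and CKX genes in every library, against hours in 20% PEG-6000 with the control at 0 h. Points are single libraries, lines join group means, and an open symbol at the foot of a panel is a library with 0 counts. CYP735A2 Ft1.997, Ft3.2838 and Ft3.2842 drop at 2 h and stay low, LOG7 Ft8.975 climbs while LOG3 Ft3.815 drops, and CKX7 is lowest at 8 h.

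The cytokinin receptors moved apart from each other. AHK4 (CRE1 in Arabidopsis) fell in both of its full-length copies. AHK4 Ft1.610 measured 3.56, 3.74 and 3.86 scaled FPKM at 2 h, 1.62, 1.25 and 1.31 at 4 h and 1.34, 1.17 and 1.54 at 8 h, against 28.4, 26 and 27.1 in the controls. Every PEG library was several times below every control library, and the 4 and 8 h libraries overlapped with each other. The log2 changes were -2.87, -4.28 and -4.32 (SE 0.0722, 0.0837 and 0.0829; edgeR adjusted p = 6.75e-30, 6.57e-34 and 2.34e-34), which is 20 times lower at 8 h. The 8 h level did not differ from that of 4 h beyond the spread (-0.04, SE 0.114, adjusted p = 0.754).

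AHK4 Ft1.2542 measured 0.751, 0.692 and 1.12 scaled FPKM at 2 h, 0.408, 0.344 and 0.448 at 4 h and 0.444, 0.883 and 0.632 at 8 h, against 6.31, 5.03 and 5.08 in the controls. It too was lower in all PEG libraries, and it was lowest at 4 h. The fitted changes (log2) were -2.67, -3.77 and -3.08 (SE 0.165, 0.187 and 0.171). The mean 8 h level was above that of 4 h (0.69, SE 0.23, edgeR adjusted p = 0.00846), with libraries that overlapped. A shorter AHK4 gene, Ft2.3875, had 4, 10 and 6 counts at the 3 PEG times and 6 in the controls and was not tested.

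AHK3 rose. AHK3 Ft6.96 measured 52.1, 56 and 56.8 scaled FPKM at 2 h, 64.1, 63.7 and 63.2 at 4 h and 74.6, 73.1 and 77.1 at 8 h, against 35, 33.3 and 34.1 in the controls. Each time lay above the one before it without overlap. Against the control it changed (log2) by 0.69, 0.90 and 1.13 (SE 0.0391, 0.0391 and 0.039; edgeR adjusted p = 2.14e-18, 2.23e-22 and 8.63e-26), or 2.19 times the control at 8 h.

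AHK2 was given by 2 gene models of unequal length that moved in opposite directions. The full-length model Ft3.990 (3405 bases) measured 6.79, 7.87 and 7.42 scaled FPKM at 2 h, 6.5, 7.23 and 7 at 4 h and 5.28, 6.16 and 5.57 at 8 h, against 13.4, 13.3 and 13.5 in the controls. It was lower in all PEG libraries, with log2 changes of -0.87, -0.96 and -1.24 (SE 0.0633, 0.064 and 0.0648). The model Ft5.191 is only 375 bases long, too short for a whole receptor. It measured 127, 139 and 138 scaled FPKM at 2 h, 231, 211 and 206 at 4 h and 232, 249 and 238 at 8 h, against 107, 114 and 108 in the controls. Those levels were the highest of any gene among the receptors in all 12 libraries, and they were higher at all 3 PEG times, with log2 changes of 0.30, 0.98 and 1.13 (SE 0.0513, 0.0501 and 0.0497).

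Summed over the 5 receptor genes without the short model, the level was 66.9 ± 3.26 scaled FPKM at 2 h, 72.5 ± 0.422 at 4 h and 82.6 ± 1.96 at 8 h, against 80.2 ± 2.79 in the controls. The 8 h libraries overlapped the controls, and the ratio of the sums at 8 h was 1.03 here and 1.14 on the deposited FPKM without TMM scaling. The make-up of the sum differed more: AHK3 held 90.7% of it at 8 h and 42.5% in the controls. AHK4 Ft1.610 stood below AHK2 Ft3.990 at all PEG times and above it in the controls, and the groups of these 2 genes did not overlap within any time.

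Histidine kinases outside the receptor group were measured too. AHK1, a candidate osmosensor in Arabidopsis that does not bind cytokinin, was given by Ft1.1155, which measured 5.61, 6.87 and 6.02 scaled FPKM at 2 h, 6.1, 5.24 and 5.25 at 4 h and 6.99, 6.93 and 6.38 at 8 h, against 15.5, 16 and 16.7 in the controls. It was lower in all PEG libraries by a similar amount. Its log2 changes against the control were -1.38, -1.54 and -1.25 (SE 0.0661, 0.0672 and 0.0653; edgeR adjusted p = 8.76e-21, 2.71e-22 and 8.79e-20).

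AHK5, a soluble kinase of stress and stomatal signalling in Arabidopsis, was again given by a short and a long model. The short one, Ft6.3425 (312 bases), measured 13.5, 16.4 and 12.6 scaled FPKM at 2 h, 9.24, 7.97 and 6.1 at 4 h and 8.67, 7.81 and 8.61 at 8 h, against 17.2, 22.4 and 18 in the controls. It was lower in all PEG libraries, with log2 changes of -0.44, -1.30 and -1.19, of which that at 2 h did not pass without control replicate 2 or without 2 h replicate 3 (-0.32 and -0.36). The long one, Ft8.4503 (2781 bases), measured 0.29, 0.718 and 0.388 scaled FPKM at 2 h, 0.764, 0.586 and 0.471 at 4 h and 0.608, 0.789 and 0.712 at 8 h, against 0.256, 0.283 and 0.217 in the controls. This low gene was higher in all PEG libraries, by 0.87, 1.27 and 1.47 on the log2 scale, and its 2 h change did not pass without control replicate 3 or without 2 h replicate 2 (0.78 and 0.43).

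CKI1, known for its part in the Arabidopsis female gametophyte, had 1 copy with enough reads. Ft4.475 measured 0.184, 0.202 and 0.0874 scaled FPKM at 2 h, 0.15, 0.102 and 0.215 at 4 h and 0.187, 0.181 and 0.165 at 8 h, against 0.307, 0.304 and 0.394 in the controls. All PEG libraries were below the controls, and the log2 changes were -1.09, -1.10 and -0.91 (edgeR adjusted p = 0.00925, 0.0074 and 0.0221). Each of these calls was lost when 1 library was left out: -0.79 at 2 h without 2 h replicate 3, -0.87 at 4 h without 4 h replicate 2, and -0.78 and -0.86 at 8 h without control replicate 3 or 8 h replicate 3. The other 3 CKI1 genes had at most 2 counts in any group.

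The phosphotransfer proteins carry phosphate from the receptors to the nucleus. Both AHP1 genes with enough reads fell. AHP1 Ft7.856 measured 81.4, 81.9 and 88.3 scaled FPKM at 2 h, 77, 71.2 and 75.7 at 4 h and 61.3, 61.9 and 60.6 at 8 h, against 149, 152 and 146 in the controls. AHP1 Ft7.4604 measured 83.3, 83.7 and 73.8 at 2 h, 81.8, 85.1 and 78.2 at 4 h and 64.1, 67.4 and 66.8 at 8 h, against 131, 131 and 135. In both genes all PEG libraries were below all control libraries, and the lowest levels were at 8 h. In log2 units the changes were -0.83, -1.0 and -1.28 for Ft7.856 (SE 0.0498, 0.0506 and 0.0511) and -0.72, -0.70 and -1.0 for Ft7.4604 (SE 0.0496, 0.0497 and 0.0502), with edgeR adjusted p-values at 8 h of 1.27e-23 and 2.2e-20. The other 3 AHP1 genes had at most 7 counts in a group.

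Pseudo-phosphotransfer proteins lack the histidine that takes the phosphate, and AHP6 of this kind holds back the pathway in Arabidopsis. PHP2 Ft5.2773, named after a rice protein, measured 18, 18.3 and 16.3 scaled FPKM at 2 h, 27.7, 22 and 24.8 at 4 h and 20.3, 21.3 and 22.6 at 8 h, against 3.98, 4.65 and 4.38 in the controls. It was several times higher in every PEG library than in any control. The fitted changes (log2) were 2.01, 2.52 and 2.30 (SE 0.137, 0.133 and 0.134; edgeR adjusted p = 4.73e-16, 1.3e-19 and 2.77e-18).

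PHP5 Ft4.3075 rose later. It measured 11.2, 11.5 and 14.2 scaled FPKM at 2 h, 19, 17.3 and 24.8 at 4 h and 34.9, 32.5 and 29.8 at 8 h, against 14.4, 14.6 and 12.9 in the controls. The 2 h libraries overlapped the controls, and the 4 and 8 h libraries were above them. The log2 change did not pass at 2 h (-0.18, SE 0.127) and was 0.55 at 4 h and 1.22 at 8 h (SE 0.121 and 0.116).

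A second PHP2 gene, Ft3.2047, was low and fell. It gave 0.184, 0.194 and 0.183 scaled FPKM at 2 h, 0.643, 0.458 and 0.689 at 4 h and 0.0574, 0.199 and 0.0575 at 8 h, against 1.27, 0.719 and 1.58 in the controls. All PEG libraries were below the controls, with log2 changes of -2.62 at 2 h and -3.46 at 8 h (SE 0.593 and 0.66), while -0.99 at 4 h did not pass. Only the controls gave this gene enough reads in all 3 libraries, so it had to be lower. Its changes describe only how large the drop was. The 4 AHP6 genes were not tested: the most counted of them, Ft3.1962, had 12, 6 and 36 counts at the 3 PEG times and 17 in the controls, and its 8 h libraries (19, 8 and 9 counts) stood above the controls in scaled FPKM (1.05, 0.511 and 0.498, against 0.291, 0.461 and 0.233).

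The summed phosphotransfer level was 164 ± 1.88, 156 ± 2.43 and 128 ± 2.14 scaled FPKM at 2, 4 and 8 h, against 281 ± 1.3 in the controls. The summed pseudo-phosphotransfer level was 30.3 ± 0.572, 46 ± 5.52 and 54.7 ± 1.58, against 19.8 ± 0.631. The first was lower and the second higher in every PEG library. Their order did not change, since the lowest phosphotransfer sum stayed above the highest pseudo-phosphotransfer sum.

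**Figure D3:**
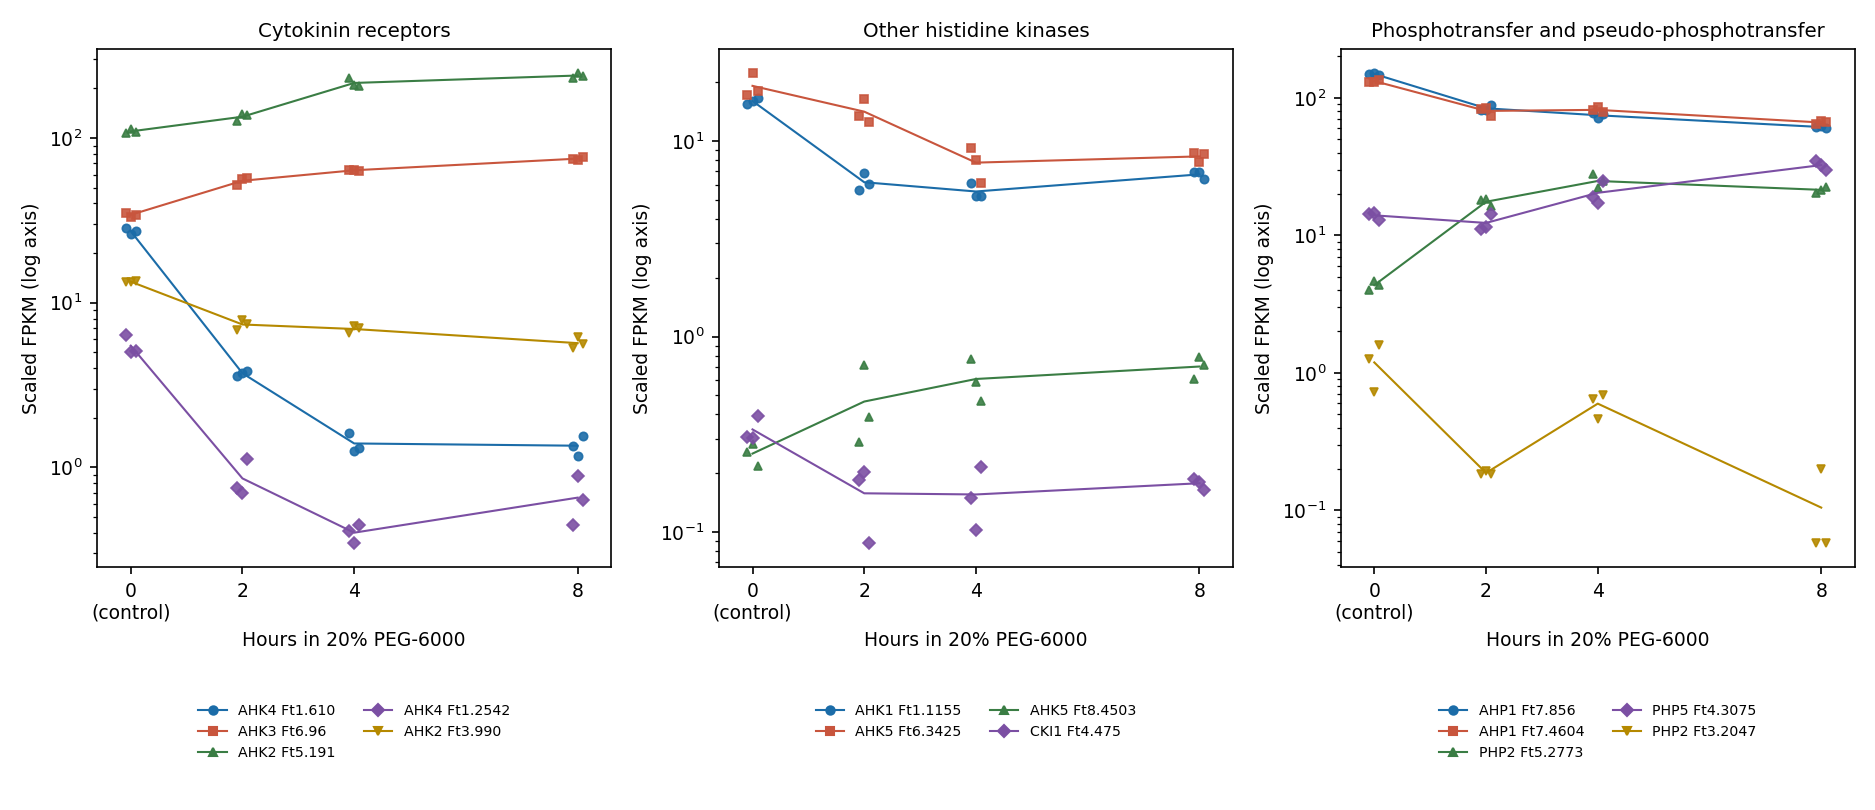
Scaled FPKM (log axis) of the receptors, the other histidine kinases and the phosphotransfer and pseudo-phosphotransfer genes in every library, against hours in 20% PEG-6000 with the control at 0 h. Points are single libraries and lines join group means. Both AHK4 genes drop at 2 h while AHK3 climbs, both AHP1 genes fall, and PHP2 Ft5.2773 and PHP5 end above the controls.

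The type A regulators, which Arabidopsis cells make in response to cytokinin, fell as a class. None of the 8 with enough reads was higher at any PEG time, and 7, 8 and 8 were lower at 2, 4 and 8 h, each by at least 2-fold (8.76%, 14.1% and 14.8% of all tested genes). The median log2 change of the 8 was -1.55, -2.21 and -3.62. Their direction was the same under every scaling tried, and none of their calls was lost when a library was left out.

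ARR4 Ft1.258, the most abundant, measured 64.4, 66.1 and 63.9 scaled FPKM at 2 h, 58.6, 54.5 and 56.3 at 4 h and 49.4, 49.2 and 46.7 at 8 h, against 149, 147 and 140 in the controls. The controls stood clear of all PEG libraries, and the PEG times lay in order without overlap. Against the control it changed (log2) by -1.16, -1.36 and -1.58 (SE 0.0452, 0.0459 and 0.0463; edgeR adjusted p = 1.01e-23, 4.79e-26 and 3.55e-28).

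ARR4 Ft6.858 measured 22.2, 23.3 and 23 scaled FPKM at 2 h, 20.5, 20 and 21.9 at 4 h and 7.58, 7.33 and 7.38 at 8 h, against 74.4, 73.3 and 72.4 in the controls. It dropped in 2 steps, by 2 h and again between 4 and 8 h. Its log2 changes against the control were -1.68, -1.82 and -3.30 (SE 0.0619, 0.0629 and 0.0714), and 8 h was lower than 4 h by 2.8 times (log2 change -1.48, SE 0.0783, edgeR adjusted p = 2.47e-19).

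ARR9 Ft5.1613 measured 7.51, 6.13 and 6.96 scaled FPKM at 2 h, 3.26, 3.48 and 4.19 at 4 h and 2.16, 2.37 and 2.38 at 8 h, against 29.4, 28.2 and 27.1 in the controls. The 4 groups did not overlap. Its log2 changes were -2.04, -2.95 and -3.61 (SE 0.109, 0.12 and 0.127; edgeR adjusted p = 3.41e-19, 2.52e-23 and 1.87e-25).

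RR10 Ft3.5265, named after a rice regulator, measured 1.22, 1.24 and 1.87 scaled FPKM at 2 h, 0.462, 0.431 and 0.619 at 4 h and 0.619, 0.716 and 0.517 at 8 h, against 14.4, 14.1 and 12.9 in the controls. It was already low at 2 h, and the 4 and 8 h libraries overlapped. In log2 units it changed by -3.25, -4.77 and -4.48 (SE 0.186, 0.222 and 0.211), or 27.2 times lower at 4 h.

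Another 4 type A genes were tested. ARR5 Ft2.6358 averaged 0.53 ± 0.0826, 0.121 ± 0.0278 and 0.407 ± 0.337 scaled FPKM, against 6.7 ± 0.71 in the controls, with log2 changes of -3.65, -5.73 and -4.01. Of the 8 it alone was called higher at 8 h than at 4 h (1.72, SE 0.61, edgeR adjusted p = 0.0132), and its 8 h libraries were spread (0.158, 0.273 and 0.79). ARR9 Ft1.1916 changed by -1.42, -2.45 and -2.31. ARR4 Ft1.2697 changed by -1.09 and -1.04 and then by -3.95 at 8 h, a late second drop like that of ARR4 Ft6.858. RR9 Ft1.835 did not pass at 2 h (-0.37, SE 0.283, adjusted p = 0.254) and fell later by 1.97 and 3.62 on the log2 scale. Of the 5 type A genes not tested, 3 ARR17 genes and 2 RR9 genes, RR9 Ft4.5844 had no count in PEG and 9 in the controls (at least 2.9, 2.74 and 3.01 times lower, with the floor at 3 counts over a group), and ARR17 Ft1.1549 had 12, 12 and 13 counts against 20.

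Summed type A levels were 109 ± 3.05 scaled FPKM at 2 h, 88.5 ± 3.24 at 4 h and 63.5 ± 1.04 at 8 h, against 293 ± 8.64 in the controls. The groups did not overlap, and the 8 h sum was 4.62 times below that of the controls. ARR4 Ft1.258 made up 76.2% of the sum at 8 h and 49.5% in the controls.

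Type B regulators are the transcription factors of the pathway. Of the 7 tested, 2, 3 and 2 were higher (28.6%, 42.9% and 28.6%, beside 31.6%, 35.1% and 36.4% of all tested genes) and 2 lower at each time (28.6%, beside 31.7%, 37.7% and 34.5%), shares near the background, and 1 change, that of ARR2 Ft3.2363, reached 2-fold at 2 and 4 h. This gene measured 9.04, 8.33 and 9.08 scaled FPKM at 2 h, 11.1, 10 and 9.13 at 4 h and 6.9, 7.6 and 6.55 at 8 h, against 3.45, 4.08 and 3.45 in the controls. It was higher in all PEG libraries, by 1.27, 1.46 and 0.94 on the log2 scale (SE 0.105, 0.105 and 0.107; edgeR adjusted p = 1.63e-13, 1.55e-15 and 5.59e-10).

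ARR2 Ft7.4544, the most abundant type B gene, measured 24.6, 24.5 and 24.3 scaled FPKM at 2 h, 27.5, 27.7 and 27.1 at 4 h and 20.9, 22 and 21.5 at 8 h, against 20.6, 20.1 and 18.8 in the controls. The 2 and 4 h libraries stood above the controls, while the lowest 8 h library was next to the highest control. The fitted changes (log2) were 0.30, 0.47 and 0.11, and the last (edgeR adjusted p = 0.0469) was lost in 14 of its alternatives, the replicate block among them.

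RR23 Ft6.1383, named after a rice type B regulator, measured 14.3, 14.3 and 14.6 scaled FPKM at 2 h, 9.36, 10.5 and 9.66 at 4 h and 11, 9.75 and 10.4 at 8 h, against 16.5, 16.8 and 16.6 in the controls. All PEG libraries were below the controls. Against the control it changed (log2) by -0.20, -0.76 and -0.68 (SE 0.0628, 0.0654 and 0.0644; edgeR adjusted p = 0.00491, 3.62e-13 and 5.58e-12).

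ARR11 Ft1.156 gave 5.35, 5.14 and 4.29 scaled FPKM at 2 h, 6.76, 6.92 and 8.93 at 4 h and 7.69, 6.87 and 6.76 at 8 h, against 6.42, 7.47 and 5.36 in the controls. Its 4 and 8 h libraries overlapped the controls. It passed at 2 h alone (-0.38, SE 0.123, edgeR adjusted p = 0.00711), and not without control replicate 2 or 2 h replicate 3 (-0.26 and -0.29). ARR11 Ft6.73 was lower at 4 and 8 h (-0.46 both times), with both values at -0.35 and no call without control replicate 2. ARR1 Ft5.1936 had 18.4 ± 0.349, 21.3 ± 0.381 and 19.2 ± 0.813 scaled FPKM, against 19.2 ± 0.607 in the controls. It passed at 4 h (0.15), a call lost without control replicate 2 (0.13) and with scaling by library size (0.08). The 3 type B genes not tested, RR22 and 2 RR26 genes, had at most 12 counts in a group.

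Summed type B levels were 75.3 ± 0.603, 80 ± 0.487 and 68.9 ± 1.31 scaled FPKM, against 70.3 ± 1.92 in the controls. The 2 and 4 h libraries were above the controls, and the 8 h libraries overlapped them. The ratio at 8 h was 0.98 here and 1.09 on the deposited FPKM without TMM scaling, so its direction depends on the scaling.

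ARR24 Ft6.206, a type C regulator, resembles the type A proteins in structure but is not made in response to cytokinin. It measured 41.9, 42.5 and 41.5 scaled FPKM at 2 h, 24.8, 28.2 and 23.4 at 4 h and 47.4, 39.6 and 43.5 at 8 h, against 7.82, 7.48 and 5.92 in the controls. It was higher in all PEG libraries, and the 4 h libraries lay below those of 2 and 8 h. Its log2 changes against the control were 2.57, 1.85 and 2.62 (SE 0.0962, 0.101 and 0.0958; edgeR adjusted p = 3.29e-24, 3.13e-19 and 6.86e-25). The dip at 4 h passed against 2 h (-0.72) and the return at 8 h passed against 4 h (0.77). At 8 h its level was below that of ARR4 Ft1.258 alone among the type A genes, and in the controls it was below those of 5 of them.

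**Figure D4:**
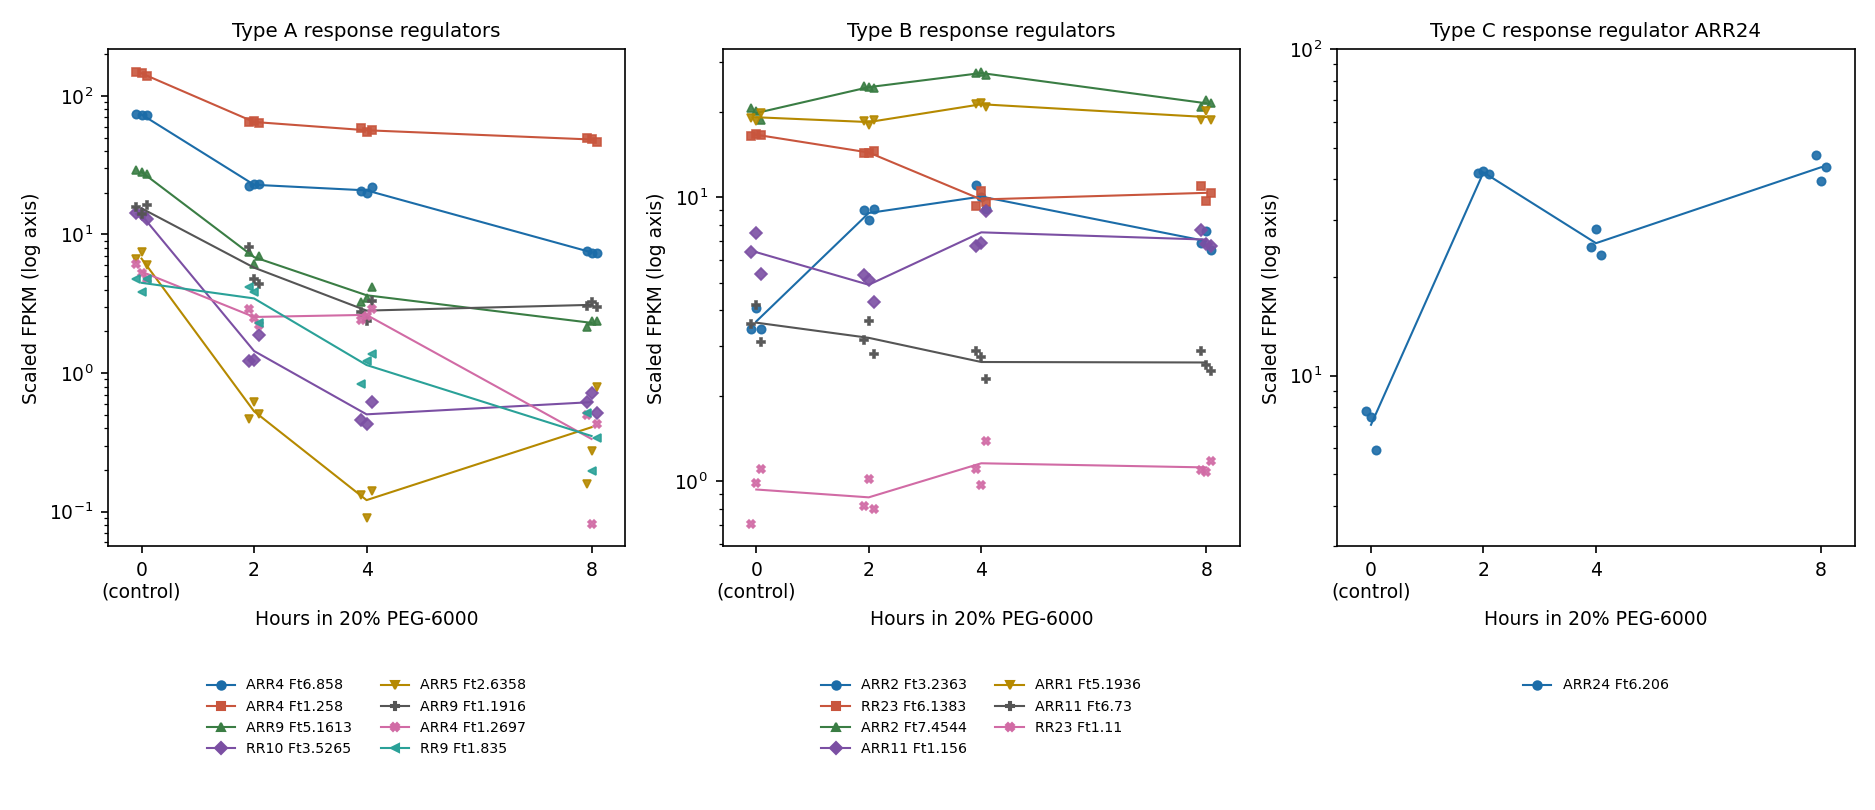
Scaled FPKM (log axis) of the type A, type B and type C response regulators in every library, against hours in 20% PEG-6000 with the control at 0 h. Points are single libraries and lines join group means. All type A genes lie lower in PEG, the type B genes stay near their control levels apart from ARR2 Ft3.2363 and RR23 Ft6.1383, and ARR24 lies above its controls at all 3 times.

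**Figure D5:**
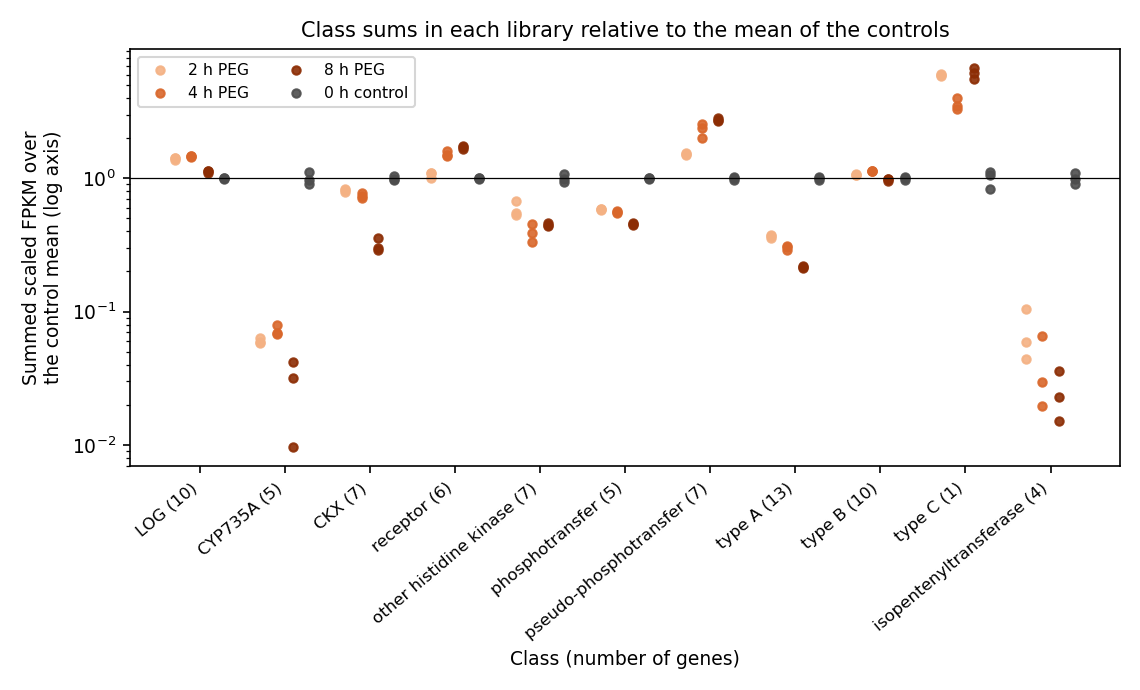
Sum of scaled FPKM over the genes of each class in every library, divided by the mean of the control libraries (log axis). Points are single libraries at 2, 4 and 8 h in PEG and at 0 h, and the line marks the control mean. The type A sum lies at 0.37, 0.302 and 0.217 of the control, the CYP735A sum at 0.0601, 0.0724 and 0.0278, and the type C gene at 5.94, 3.6 and 6.15. The receptor sum includes the short AHK2 model Ft5.191 and lies at 1.06, 1.52 and 1.7. Without that model it would be 0.834, 0.903 and 1.03.

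Between 2 and 4 h 10 of the 51 rose and 19 fell (26.3% and 26.9% of all tested genes, together 53.2%), and between 4 and 8 h 12 rose and 21 fell (33.8% and 31.7%, together 65.5%). Changes of at least 2-fold were 1 up and 11 down between 2 and 4 h (4.15% and 4.39% of all tested genes) and 1 up and 10 down between 4 and 8 h (7.62% and 9.97%). In the type A class 6 of 8 fell further between 2 and 4 h, and 5 between 4 and 8 h. Of the 5 tested receptor genes, 3 were higher at 8 h than at 4 h and 1 lower. These 3 were AHK3 (0.23), the short AHK2 model (0.15) and AHK4 Ft1.2542 (0.69), the last with libraries that overlapped.

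Other genes of the pathway, which the description rule does not take, were looked up by name: isopentenyltransferases, transporters, adenine phosphoribosyltransferases, cytokinin response factors (CRF) and a zeatin glycosyltransferase. Of these 30 genes 26 were tested, and 7 were higher and 12 lower at 2 h (26.9% and 46.2%, beside 31.6% and 31.7% of all tested genes), 5 and 11 at 4 h (19.2% and 42.3%, beside 35.1% and 37.7%), and 9 and 13 at 8 h (34.6% and 50%, beside 36.4% and 34.5%). Both tested isopentenyltransferases, which make the first cytokinin nucleotide, fell. IPT3 had enough reads for the test only in the controls, so it had to be lower. IPT5 Ft5.1851 measured 0.424, 0.328 and 0.703 scaled FPKM at 2 h, 0.414, 0.181 and 0.159 at 4 h and 0.106, 0.0917 and 0.132 at 8 h, against 4.79, 5.08 and 5.11 in the controls. All PEG libraries were far below the controls, and the log2 changes were -3.35, -4.28 and -5.45 (SE 0.288, 0.323 and 0.363).

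IPT3 Ft7.3486 had 1, 0 and 6 counts at 2, 4 and 8 h, against 304 in the controls (2.37, 3.37 and 2.71 scaled FPKM). The single count at 2 h gave a level 294 times lower (95% exact counting interval 52.4 to 11655), and the 0 counts at 4 h a level at least 92.5 times lower, with the floor at 3 counts over the group. The 6 counts at 8 h were all in 1 of the 3 libraries. The 2 genes of the tRNA-modifying type, which start the separate cis-zeatin route, were not called lower: IPT9 Ft8.4010 averaged 2.31 ± 0.287, 1.76 ± 0.329 and 5.4 ± 0.317 scaled FPKM against 1.45 ± 0.0451, higher at 2 and 8 h (0.67 and 1.89), and IPT2 Ft8.1452 passed at no time (-0.12, -0.21 and -0.25).

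Among the transporters, ABCG14, which loads root-made cytokinin into the xylem in Arabidopsis, averaged 11.1 ± 0.716, 7.79 ± 0.406 and 2.95 ± 0.166 scaled FPKM against 13.2 ± 0.717 in the controls, and fell by 0.25, 0.76 and 2.16 on the log2 scale. AZG1 Ft1.768, named after a purine carrier, averaged 45.5 ± 2.77, 76.6 ± 2.98 and 114 ± 5.51 against 15.1 ± 0.445, a log2 change of 1.59, 2.34 and 2.92 (edgeR adjusted p at 8 h 4.83e-36). A second AZG1 gene, Ft5.2371, was lower at 2 and 4 h (-1.34 and -0.66), with -0.14 at 8 h, which did not pass. Of the 9 purine permeases tested, 2, 2 and 3 were higher (22.2%, 22.2% and 33.3%, beside 31.6%, 35.1% and 36.4% of all tested genes) and 4, 2 and 5 lower (44.4%, 22.2% and 55.6%, beside 31.7%, 37.7% and 34.5%). The most abundant of them, PUP10 Ft5.2862, averaged 231 ± 4.95, 272 ± 7.03 and 115 ± 2.09 against 282 ± 1.83, with log2 changes of -0.29, -0.06 and -1.30, of which the second did not pass. PUP21 Ft8.5179 was lower at all 3 times (-0.65, -0.70 and -0.63).

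CRF1 Ft1.1632, a gene of the AP2 factors that respond to cytokinin in Arabidopsis, measured 5.73, 6.07 and 6.19 scaled FPKM at 2 h, 2.64, 3.22 and 3.19 at 4 h and 1.84, 1.62 and 1.54 at 8 h, against 0.665, 0.286 and 0.464 in the controls. It was highest at 2 h and declined after that without reaching the controls, with log2 changes of 3.66, 2.67 and 1.81 (SE 0.236, 0.25 and 0.266). CRF3 Ft2.498 was lower at all 3 times (-0.50, -0.84 and -0.77). CRF6 Ft7.3725 was lower as well (-2.59, -3.65 and -3.68), and CRF3 Ft8.3501 was lower at 4 and 8 h (-1.40 and -2.95). Only the controls gave CRF6 enough reads in all 3 libraries, so it had to be lower, and the counts of lower genes include it. CRF2 Ft4.3753 and CRF4 Ft5.959 were higher at 8 h alone (0.53 and 1.84), CRF4 with libraries that overlapped the controls. At 8 h 3 of the 6 tested CRF genes were higher and 3 lower (50% each, beside 36.4% and 34.5% of all tested genes). The zeatin O-xylosyltransferase ZOX1 Ft8.602, which makes a storage form of zeatin, measured 8.35, 8.23 and 8.23 scaled FPKM at 2 h, 18, 15.9 and 17 at 4 h and 37.3, 40.2 and 39.7 at 8 h, against 4.63, 4.29 and 5.25 in the controls. It rose with each time without overlap, by 0.81, 1.84 and 3.05 on the log2 scale (SE 0.084, 0.0782 and 0.0744; edgeR adjusted p = 6.92e-11, 1.02e-22 and 8.07e-31). The adenine phosphoribosyltransferases, which turn free bases back into nucleotides, were lower in APT5 Ft7.4404 (-0.94, -0.70 and -1.11) and APT1 Ft4.5746 (-0.62, -0.97 and -1.18). The more abundant APT1 Ft3.5644 passed at 2 h alone (0.43).

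The 20 cytokinin genes that were not tested had at most 19 counts in any library and at least 1 count in the 12 libraries together. They were 1 CYP735A, 1 receptor, 3 other histidine kinases, 3 phosphotransfer, 4 pseudo-phosphotransfer, 5 type A and 3 type B genes, and with so few counts no test of them was made. Among the 32 tested genes with a mean of at least 100 counts, the coefficient of variation between libraries of a group had a median of 5.51% and reached 36.1% at most.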

How the data were processed

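The 12 RNA-seq libraries form 4 groups of 3. The table deposited by the authors holds whole-number read counts and FPKM for each gene. Those FPKM, as the authors deposited them, equal the count over the library total and a gene length (largest relative difference 1.72e-07), and every length is a multiple of 3, so it is a coding length. Per the submitters' processing notes, fastp, HISAT2, HTSeq and DESeq2 were used, with neither version nor role stated. The genome build is not given in the sources used here, nor are the strand setting and the handling of near-identical copies.

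One TMM-scaled quasi-likelihood model in edgeR 4.0.16 (R 4.3.3, limma 3.58.1) took all 12 libraries, after filterByExpr (minimum count 10, minimum total 15) left 22063 genes and removed 4687. TMM factors ran from 0.936 to 1.1. Each PEG time was set against 0 h and neighbouring times against each other, with Benjamini-Hochberg adjustment over all tested genes at 0.05. Without TMM, scaling by library size moved the all-gene median log2 change to 0.18 at 8 h and -0.10 at 4 h. Depth was 30468104 to 37395814 counts per library. Intervals (95%) and the floor of 3 counts cover counting error only. The steps were tested on simulated data.

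Values of every library were given, per class, for up to 4 genes with the smallest p for any difference plus the most abundant, and up to 2 per name among other pathway genes (some as means). Genes outside this rule, such as CRF6 and APT1 Ft3.5644, and the full values of AHK2 Ft3.990, were added after their values were seen. The genes, lists and markers were chosen with earlier results of these data known. Replicate numbers did not pair the samples. The alternatives used DESeq2 1.42.0, its size factors, library-size scaling, other filters (none, or 1 CPM in 3 libraries with a mean of 5 CPM), limma on log2(FPKM + 1) or log2(FPKM + 0.1), a replicate block, a fit of the compared groups alone, a minimum change of 2-fold, and each library left out in turn. Tables and figures came from Python 3.11.15, pandas 2.3.3 and matplotlib 3.10.9.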

Additional observations from a re-analysis of the deposited data

Results flagged for a closer look

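Of the cytokinin genes, 2 differed from the control in opposite directions at neighbouring times, with the difference between those times itself passing the edgeR threshold. LOG7 Ft2.4400 was higher at 4 h (0.81) and lower at 8 h (-0.19), and its 8 h against 4 h log2 change was -1.0 (SE 0.0756, adjusted p = 1.29e-14). Its 8 h call against the control was lost in 5 alternatives (-0.16 to -0.04, adjusted p up to 0.679), 2 of which left out a single library (control replicate 2 or 8 h replicate 1). CKX5 Ft4.5822 was higher at 2 h (1.31) and lower at 4 h (-0.98), and its 4 h against 2 h log2 change was -2.29 (SE 0.302, adjusted p = 3.2e-08). Groups of 3 libraries were too small for a check of single outlying libraries.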

How the results depend on the processing

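For 65 of the genes named, with a test at 3 times each (195 results), 3895 of 3969 values under the alternatives kept their direction and their side of the threshold, 53 lost the call, 18 gained one and 3 changed sign. The sign changes were all ARR1 Ft5.1936 at 8 h, which was not called: -0.00 became 0.15 with library-size scaling, 0.14 with limma on log2(FPKM + 1) and 0.15 with limma on log2(FPKM + 0.1). All 3 passed as higher (edgeR adjusted p = 0.0128, limma adjusted p = 0.0131 and 0.0125), so whether this gene is called at 8 h depends on the processing. The stricter filter, which tested fewer of the genes, left 11 higher and 14 lower at 2 h, 13 lower at 4 h, 15 lower at 8 h, 12 lower from 2 to 4 h and 28 that differed between the 4 times. The 2-fold minimum left 9 higher and 17 lower at 2 h, 8 higher at 4 h, 8 higher at 8 h, 1 higher and 11 lower from 2 to 4 h, and 1 higher and 10 lower from 4 to 8 h. Limma on log2(FPKM + 1) and on log2(FPKM + 0.1) each gave 13 lower from 4 to 8 h, against 21 in the report, and the cause was not tested. With 1 library left out, the counts ran from 16 to 17 higher and 23 to 26 lower at 2 h, 15 to 16 and 27 to 29 at 4 h, 12 to 14 and 29 to 31 at 8 h, 9 to 10 and 18 to 21 from 2 to 4 h, 9 to 12 and 19 to 22 from 4 to 8 h, and 49 to 50 that differed between the times. Of 168 calls, 17 were lost when at least 1 single library was left out, and the report gives them with the genes. Same-numbered libraries did not deviate together (r from -0.04 to 0.03 in 18 pairs, and 2 of 12 libraries were most like their own number), and a replicate block changed 1 count, to 13 higher at 8 h. Low counts limit the 20 untested genes and the CYP735A2 and IPT3 ratios.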
